A study of Mus musculus with 2 samples.

Results

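The stefin-type protease inhibitors described here are Stfa1, Stfa2, Stfa2l1, Stfa3, Cstdc4, Cstdc5 (listed also under its older name BC100530) and Cstb. The 8 names were given as a list chosen by their CPM levels and detection in the neutrophils and macrophages of these same libraries, and they correspond to 7 of the 32285 gene models in the count matrices, because BC100530 and Cstdc5 are names of the same gene. The levels below are therefore a description, and no test was made of the pattern that led to the choice. Members were found by gene symbol, and all 7 were detected in both libraries.

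The data are single-cell RNA counts from mouse tumours. Cells carrying the leukocyte protein CD45 were enriched with antibody and magnetic beads, and the 3′ ends of their transcripts were counted in droplets. There were 2 libraries: CEP, from animals given cepharanthine, and Vehicle (spelled "Vehide" in its title), from the control animals. Cepharanthine is a plant alkaloid of the bisbenzylisoquinoline class, and the series title ties it to cell death that stimulates immunity. The design names 5 animals per group, but no label assigns a cell to an animal, so each group is 1 library and no test between them was possible. The sources used here do not state the tumour model, the strain, sex or age of the mice, or the dose and timing of the compound. The 95% intervals below cover counting error only and leave out the spread between animals. Those of levels and ratios treat each UMI as an independent count, so they leave out the spread between cells too.

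Stefins are the cystatins that lack a secretion signal and stay inside the cell. They block papain-like cysteine proteases such as cathepsins B, H, L and S by filling the active-site cleft. The mouse genome carries a row of stefin A-like genes side by side, and their transcripts are known from neutrophils, the short-lived granulocytes that are loaded with proteases. Cystatin B, encoded by Cstb, is made in most tissues, and its loss in humans causes an inherited myoclonus epilepsy.

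In the GRCm38 annotation the 6 stefin A-like members lie on chromosome 16 within 298582 bp. Stfa2l1 (36156811 to 36161953), Cstdc4 (36184212 to 36188111) and Stfa1 (36276951 to 36285373) are on the plus strand. Cstdc5 (36359382 to 36367748), Stfa2 (36403992 to 36408457) and Stfa3 (36450537 to 36455392) are on the minus strand. Cstb is apart from them, on the plus strand of chromosome 10 (78425669 to 78427622). The coding parts of the 6 neighbours were 59.0 to 96.4% identical over 15 pairs, with Stfa2 and Stfa2l1 the closest, while Cstb shared 52.4 to 62.7% of its coding bases with them.

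The promoters of the 6 neighbours resemble each other too. The promoter windows used here are the bases before the start in the 300-base entries of the RefSeq promoter table (GRCm38.p6). Those of the 6 neighbours were 65.1 to 89.4% identical, and the longest stretch present in all 6 was 12 bases, ACCTTTAAAACC. On either strand, it occurred in 11 of 32536 mouse promoters of that table (0.0338%), a count that includes the 6 from which it was taken. The 90 bases before the start are shown for 3 members whose RefSeq and GENCODE starts coincide: Stfa3, which had the lowest CEP to Vehicle ratio of the members in all neutrophils, and Stfa2l1 and Cstdc4, which had the highest ratios of the cluster in all neutrophils. They lie at chr16:36156721-36156810 (plus), chr16:36455393-36455482 (minus) and chr16:36184122-36184211 (plus), are written 5′ to 3′, and carry the shared stretch in capitals.
Stfa2l1: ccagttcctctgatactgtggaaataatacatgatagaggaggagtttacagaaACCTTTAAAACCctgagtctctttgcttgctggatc
Stfa3: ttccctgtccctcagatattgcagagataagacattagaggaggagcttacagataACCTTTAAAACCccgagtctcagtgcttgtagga
Cstdc4: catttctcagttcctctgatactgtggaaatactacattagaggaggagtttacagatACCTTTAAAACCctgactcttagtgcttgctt
The shared stretch begins 36, 34 and 32 bases before the start in Stfa2l1, Stfa3 and Cstdc4. It contains TTTAAA, which 12.04% of all promoters hold, and none of the 6 windows holds the letters TATAAA (12.3% of all promoters). The letters GAGGAA, searched because ETS-family factors bind such a core, were in 6 of 6 windows against 23.4% of all promoters. The letters TTGCNNAA, a core bound by C/EBP factors, were in the windows of Stfa1 and Cstdc5 (9.57% of all promoters). Members with unlike ratios thus share these letters, and a match is only a description of the sequence.

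Because the members are close paralogs, part of their 3′ ends cannot be told apart by a short read. Over the last 400 transcript bases, 28.3% of the 90-base windows of Cstdc5 also occur in Cstdc6 or Stfa1, 16.1% of those of Cstdc4 occur in Csta2, and 5.79% of those of Stfa1 occur in Cstdc5. Stfa2 and Stfa2l1 share 2.57% of these windows with each other, and Stfa3 and Cstb share none. The sources used here do not say how reads that fit several genes were counted. The sum of the 6 neighbours, called the stefin A cluster sum, is therefore given beside each member.

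Neutrophils were taken as cells with at least 1 UMI (unique molecular identifier, a count of captured molecules) of Csf3r or Cxcr2, receptors for a granulocyte growth factor and for chemokines, and fewer than 3 UMIs of C1qa, C1qb and C1qc together. They numbered 1687 in CEP and 2143 in Vehicle. Granule-high neutrophils had at least 10 UMIs of Camp, Ngp and Ltf, granule genes of the immature stages, and numbered 54 and 101. Interferon neutrophils were the others with at least 4 UMIs of the interferon-induced genes Rsad2, Ifit1 and Ifit3, and numbered 123 and 200. The remaining neutrophils numbered 1510 and 1842. Macrophages, with at least 10 C1q UMIs, numbered 4706 and 5160 and served as a yardstick for free RNA, the messenger that leaks into droplets from broken cells. Levels are UMIs per 1000000 UMIs of the group (CPM). A 3′ count gives each transcript molecule the same weight whatever its length, so members were compared without a length term.

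The neutrophil gate held high levels of neutrophil markers, but in both libraries part of its cells also met another gate. These were 11.0% of neutrophils in CEP and 11.7% in Vehicle, with 36.3 and 29.3% of the UMIs. The 10 neutrophil markers, which include the gate genes Csf3r and Cxcr2, were all detected. Their summed level was 96431 CPM in CEP and 117241 CPM in Vehicle, with S100a9 the most abundant. In macrophages all 10 were detected too, and they summed to 1680 and 1441 CPM. The 5 epithelial markers summed to 798 and 122 CPM and the 4 fibroblast markers to 1063 and 8.71 CPM. The top cell held 38.5% of the fibroblast marker UMIs in CEP and 96.1% in Vehicle. Cells that also met an epithelial gate (at least 5 UMIs of Krt8, Krt18 and Epcam) held 17.1% of the UMIs of the remaining CEP neutrophils against 2.32% in Vehicle, and 23.6% against 0% in the interferon group. Since such deep cells enlarge the total, the CEP to Vehicle differences of the members are given a further time for neutrophils outside the other gates, which leaves out those that also met the epithelial, T cell, dendritic or monocyte gate (185 CEP and 251 Vehicle cells). In that set the neutrophil markers summed to 125986 and 125814 CPM. The epithelial markers summed to 19.4 and 11.1 CPM, a fall set by the exclusion itself, since they include Krt8, Krt18 and Epcam. The fibroblast markers were at 282 and 12.3 CPM, with 3 CEP cells and 1 Vehicle cell holding at least 10 such UMIs. Keratin genes of stratified epithelium (Krt5, Krt14 and Krt6a), a tissue known for stefin A, summed to 6.70 and 0.512 CPM in all neutrophils, and Krt5 and Krt6a were at 0 in CEP. Of the cell barcodes, 136 occurred in both libraries, 6 of them among neutrophils. Mitochondrial genes gave 0.678 and 0.440% of neutrophil UMIs. With a mitochondrial limit of 10%, the log2 CEP to Vehicle ratio of the stefin A cluster sum in all neutrophils was -0.844, beside -0.843 in the main values. Without mitochondrial UMIs in the total it was -0.840. The part of the other differences in the values below was not tested beyond the values outside the other gates.

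The 6 neighbours were found mainly in neutrophils. In all neutrophils the stefin A cluster sum was 3963 CPM in CEP and 7110 CPM in Vehicle, and in macrophages it was 70.9 and 73.1 CPM. The macrophage level was thus 1.79% of the neutrophil level in CEP and 1.03% in Vehicle. S100a8, a calcium-binding alarmin of neutrophils, stood at 1.41 and 1.04% by the same measure, S100a9 at 1.43 and 0.965%, and the neutrophil gene Retnlg at 1.41 and 0.844%. The share of the cluster was thus near those of these neutrophil genes in Vehicle and above them in CEP. Whether macrophages express the cluster was not tested. After the thinning described below, 96.5% of CEP and 97.2% of Vehicle macrophages held no cluster UMI and the highest cells held 20 and 30, and the share of free RNA and of mixed droplets in these UMIs was not tested. Cstdc5 made up 29.97% of the cluster in CEP macrophages and 29.9% in CEP neutrophils, and 34.2 and 36.3% in Vehicle.

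The order of the gates outside neutrophils differed between the libraries. The monocyte gate held 35.2 CPM of the stefin A cluster sum in CEP and 135.6 CPM in Vehicle, the dendritic gate 5.25 and 25.2 CPM, and the epithelial gate 1.92 and 7.24 CPM. In the T cell gate no UMI was found in 150 CEP cells, which allows up to 4.55 CPM, against 61.8 CPM in 238 Vehicle cells. S100a8 was likewise lower in the CEP monocyte gate, at 341 against 936 CPM. The top cell held 12.2% of the neutrophil marker UMIs of the monocyte gate in CEP and 30.5% in Vehicle. In the T cell gate it held 28.6 and 23.4%, and the Vehicle value of the cluster there rests on 52 UMIs. The part of such cells in the order of the gates was not tested. Cells that met no gate held 1145 and 1910 CPM of the stefin A cluster sum with 4494 and 6202 CPM of S100a8, so some of them carry neutrophil transcripts without a Csf3r or Cxcr2 UMI.

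**Figure D1:**
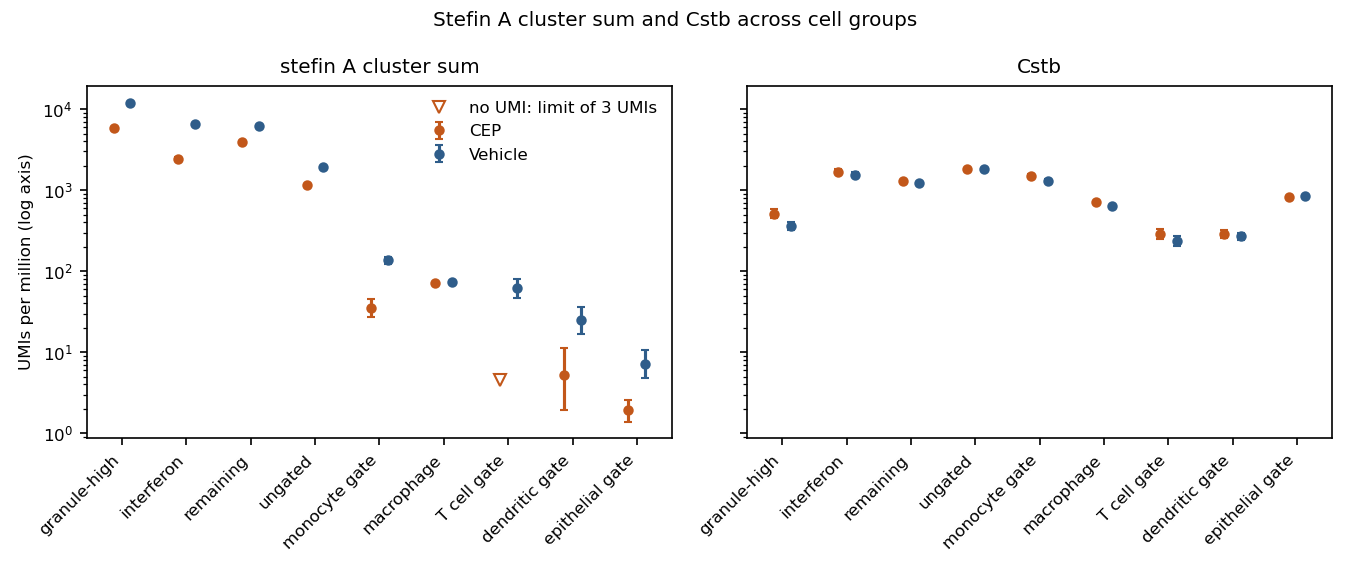
Level of the stefin A cluster sum (left) and of Cstb (right) in each cell group, in CPM on a log axis, with 95% Poisson intervals of the count, for the CEP (orange) and Vehicle (blue) libraries. The open triangle is the limit that 3 UMIs would give where none was found. The cluster is above 1000 CPM in the neutrophil groups and the ungated cells and at or below 135.6 CPM elsewhere, while Cstb stays above 200 CPM in every group.

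Cstb had another distribution. Its level was 1262 CPM (1231 to 1294) in CEP neutrophils and 1134 CPM (1107 to 1162) in Vehicle neutrophils. Macrophages held 715 and 640 CPM, 56.7 and 56.4% of the neutrophil level, far above the shares of S100a8, S100a9 and Retnlg. The monocyte gate stood above neutrophils at 120 and 115% of their level, the epithelial gate at 66.1 and 74.3%, the dendritic gate at 22.8 and 23.6%, and the T cell gate at 22.7 and 20.9%. Both libraries put these 6 groups in the same order, and the intervals of the dendritic and T cell gates overlapped in each.

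Within neutrophils the cluster members split by state. In granule-high neutrophils of the Vehicle library the stefin A cluster sum was 12013 CPM, more than 1 in 100 of all UMIs, against 6207 CPM in the remaining neutrophils. Cstdc5 alone stood at 6263 against 1926 CPM, Stfa3 at 863 against 211.6 CPM and Stfa2 at 1909 against 1109 CPM. By contrast Stfa2l1 was at 1158 against 1302 CPM and Cstdc4 at 1792 against 1645 CPM. In CEP, Cstdc5 was at 2994 against 1048 CPM, Stfa3 at 355 against 86.4 CPM, Stfa2 at 1071 against 555 CPM, Stfa2l1 at 532 against 999.6 CPM and Cstdc4 at 862 against 1246 CPM. Stfa3 and Cstdc5 were the members most tilted to the granule-high state in both libraries. Past a fold of 1.5, granule-high over remaining, 4 of 7 members were higher in Vehicle and 3 of 7 in CEP, where 8.6 and 9.07% of all measured genes were. Cstb went the other way, at 363 against 1234 CPM in Vehicle and 513 against 1294 CPM in CEP, a difference past the fold that 51.8 and 51.6% of genes shared.

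When cells of other gates were left out, the tilt of Stfa3 and Cstdc5 held in both libraries and that of the sum held in Vehicle only. Stfa3 stayed higher in granule-high cells (log2 1.62 in Vehicle and 1.13 in CEP), as did Cstdc5 (1.26 and 0.60), and Stfa2l1 was lower (-1.004 and -1.62) along with Cstdc4 (-0.82 and -1.25). The stefin A cluster sum was then 9797 against 7360 CPM in Vehicle (log2 0.41, 0.36 to 0.46) and 4562 against 5490 CPM in CEP (-0.27, -0.36 to -0.17). The median log2 of all measured genes in this contrast was -0.57 in Vehicle and -0.45 in CEP. Past 1.5-fold, 49.4 and 45% of genes were lower and 9.36 and 11.7% were higher. This comparison rests on 32 CEP and 57 Vehicle granule-high cells, because many granule-high cells also met the monocyte gate (17 of 54 and 36 of 101).

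Shares of the cluster, which need no total of the group, differed between granule-high and remaining cells in the same direction in both libraries for 4 members. Cstdc5 took 51.4% of cluster UMIs in CEP granule-high cells and 52.1% in Vehicle, but 26.6 and 31.0% in the remaining neutrophils. Stfa2l1 took 9.13 and 9.64% in granule-high cells and 25.3 and 21.0% in the remaining ones, and Cstdc4 went from 14.8 and 14.9% to 31.6 and 26.5%. Stfa3 went from 6.10 and 7.18% to 2.19 and 3.41%. Stfa2 did not show 1 direction: its share was 18.4% in granule-high against 14.1% in remaining cells of CEP, and 15.9% against 17.9% in Vehicle. Stfa1 was scarce throughout, at 0.157 to 0.404% of the cluster in the 3 neutrophil groups of both libraries. The interferon group resembled the remaining neutrophils, with 31.0 and 28.2% Cstdc4 and 27.5 and 29.8% Cstdc5.

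**Figure D2:**
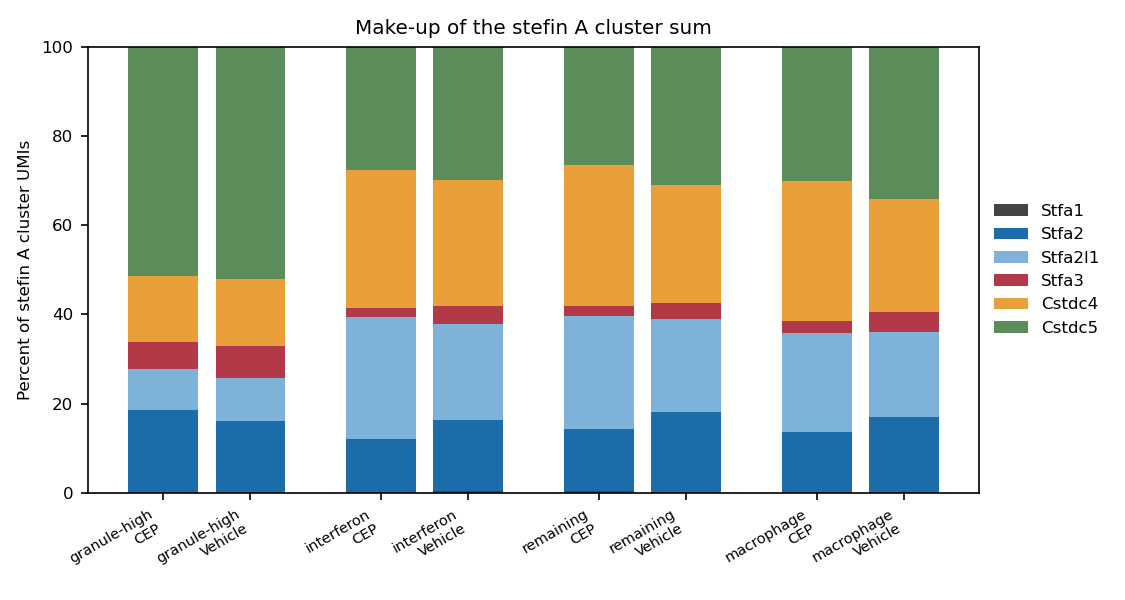
Share of each member in the stefin A cluster sum, in percent of the cluster's UMIs, for 3 neutrophil groups and macrophages of each library. Cstdc5 fills about the same large share of granule-high cells in both libraries (51.4 and 52.1%), and the macrophage bars look like the bars of the larger neutrophil groups of their own library. Stfa1 is too scarce to see.

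The interferon group stood apart from the remaining neutrophils in CEP but hardly in Vehicle. In Vehicle the stefin A cluster sum was 6560 CPM in interferon and 6207 CPM in remaining neutrophils (log2 0.08, 0.03 to 0.13). In CEP it was 2395 against 3947 CPM (log2 -0.72, -0.81 to -0.63), and 6 of 7 members were lower past 1.5-fold where 14.5% of genes were. Without cells of other gates the CEP values came closer, at 3959 against 5490 CPM (-0.47, -0.57 to -0.37), and 2 members, Stfa3 and Cstdc4, stayed past the fold where 19% of genes did. The Vehicle values were then 6996 and 7360 CPM (-0.07, -0.13 to -0.01).

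The CEP library held less of the stefin A cluster in every neutrophil group. In all neutrophils the ratio of the stefin A cluster sum was 0.557 (log2 -0.84, -0.87 to -0.82), and outside the other gates the levels were 5322 and 7575 CPM (log2 -0.51, -0.54 to -0.48). In granule-high cells the sum was 5823 against 12013 CPM (-1.04, -1.11 to -0.98), and -1.10 outside the other gates. In the interferon group it was 2395 against 6560 CPM (-1.45, -1.55 to -1.36), and -0.82 outside the other gates. In the remaining neutrophils it was 3947 against 6207 CPM (-0.65, -0.68 to -0.62), and -0.42 outside the other gates. With Cstb added, the sum of all members was 5225 against 8244 CPM in all neutrophils. The direction was the same in all 3 groups. Leaving out the cells of other gates brought the ratios of the interferon group and the remaining neutrophils nearer to 0 and hardly moved that of the granule-high cells.

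Set against all measured genes, several members were at the low end. Of the genes with at least 50 UMIs in all neutrophils, 2.03% were lower in CEP past 1.5-fold and 22% were higher, and 4 of 7 members (Stfa1, Stfa2, Stfa3 and Cstdc5) were among the lower and none among the higher. The median log2 ratio of the members was -0.59 and that of all genes 0.12. Of 8367 genes, 4 had a lower ratio than Stfa3, 16 a lower ratio than Cstdc5 and 17 a lower ratio than Stfa2. With cells of other gates left out, the shares of genes were nearly even, 3% lower and 2.5% higher, and Stfa2, Stfa3 and Cstdc5 were among the lower. In granule-high cells 5 of 6 measured members were lower past the fold (4.64% of genes), in the interferon group 5 of 6 (16.7%) and in the remaining neutrophils 3 of 7 (2.65%). The same numbers of members passed outside the other gates, where 6.06, 6.46 and 3.44% of genes did. Since the members were chosen with these values known, the counts describe them and show nothing beyond that.

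Stfa3 had the lowest ratio of the members other than the scarce Stfa1 in each of the 3 groups. It stood at 355 CPM (302 to 416) in CEP and 863 CPM (802 to 926) in Vehicle granule-high cells. In the interferon group it was at 46.3 CPM (29.0 to 70.2) and 272 CPM (231 to 319), and in the remaining neutrophils at 86.4 CPM (77.5 to 95.9) and 211.6 CPM (198 to 226). The intervals of the 2 libraries did not overlap in any group. The log2 ratio was -1.28 in granule-high, -2.55 in interferon and -1.29 in remaining neutrophils, and -1.53, -1.93 and -1.05 outside the other gates. The interferon value rests on 22 CEP and 154 Vehicle UMIs.

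Cstdc5 and Stfa2 had the next lowest ratios in all neutrophils (-1.12 and -1.09), but in granule-high cells Stfa2 had the highest ratio of the cluster. Cstdc5, the most abundant member in Vehicle, had log2 ratios of -1.06 in granule-high cells (2994 against 6263 CPM), -1.57 in the interferon group (659 against 1956 CPM) and -0.88 in the remaining neutrophils (1048 against 1926 CPM). Stfa2 had -0.83 (1071 against 1909 CPM), -1.88 (284 against 1043 CPM) and -0.9998 (555 against 1109 CPM). Outside the other gates, the granule-high, interferon and remaining values were -1.29, -0.84 and -0.62 for Cstdc5 and -0.93, -0.98 and -0.76 for Stfa2. Both genes were lower in CEP in each of the 3 groups with and without the cells of other gates.

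Stfa2l1 and Cstdc4 had ratios nearer to 0 than Stfa2, Stfa3 and Cstdc5 in the remaining and interferon neutrophils. In the remaining neutrophils Stfa2l1 was at 999.6 against 1302 CPM (log2 -0.38) and Cstdc4 at 1246 against 1645 CPM (-0.40), and outside the other gates both stood at -0.18. In granule-high cells they were at 532 against 1158 CPM (-1.12) and 862 against 1792 CPM (-1.06), and outside the other gates at -0.80 and -0.60. In the interferon group they were at 657 against 1413 CPM (-1.10) and 744 against 1849 CPM (-1.31), and outside the other gates at -0.59 and -0.85, the latter beside -0.84 for Cstdc5. Stfa2 and Stfa2l1, whose coding parts are the most alike, thus had log2 ratios of -0.9998 and -0.38 in the same remaining cells, with intervals of -1.07 to -0.93 and -0.44 to -0.32. That Stfa2 and Stfa2l1 differ in the CEP to Vehicle ratio was not tested beyond these counting intervals.

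Stfa1 was too scarce to compare within the small groups. It gave 4 CEP and 25 Vehicle UMIs in granule-high cells, 2 and 15 in the interferon group, and 49 and 59 in the remaining neutrophils, where 12.2 and 13.4 CPM gave a log2 ratio of -0.13 (-0.71 to 0.44). Its lower value over all neutrophils (-0.60, -1.10 to -0.11) came to -0.26 (-0.82 to 0.28) outside the other gates, where the small groups held 2 and 14 (granule-high) and 2 and 7 UMIs (interferon) and the remaining neutrophils 44 and 55. A difference in Stfa1 was not detectable at this depth in the remaining neutrophils.

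Cstb did not share the lower level. It was at 1294 against 1234 CPM in the remaining neutrophils (log2 0.07, 0.01 to 0.12), 1679 against 1554 CPM in the interferon group (0.11, -0.03 to 0.25) and 513 against 363 CPM in granule-high cells (0.50, 0.25 to 0.75). The granule-high value outside the other gates was 0.68 (0.35 to 1.003), past the fold of 1.5 that 6.14% of genes passed upward. Those of the interferon group and the remaining neutrophils were 0.053 (-0.13 to 0.24) and 0.14 (0.076 to 0.20). In macrophages Cstb was at 715 against 640 CPM (0.16, 0.14 to 0.18). In all neutrophils the ratio of 0.15 is close to the all-gene median of 0.12.

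**Figure D3:**
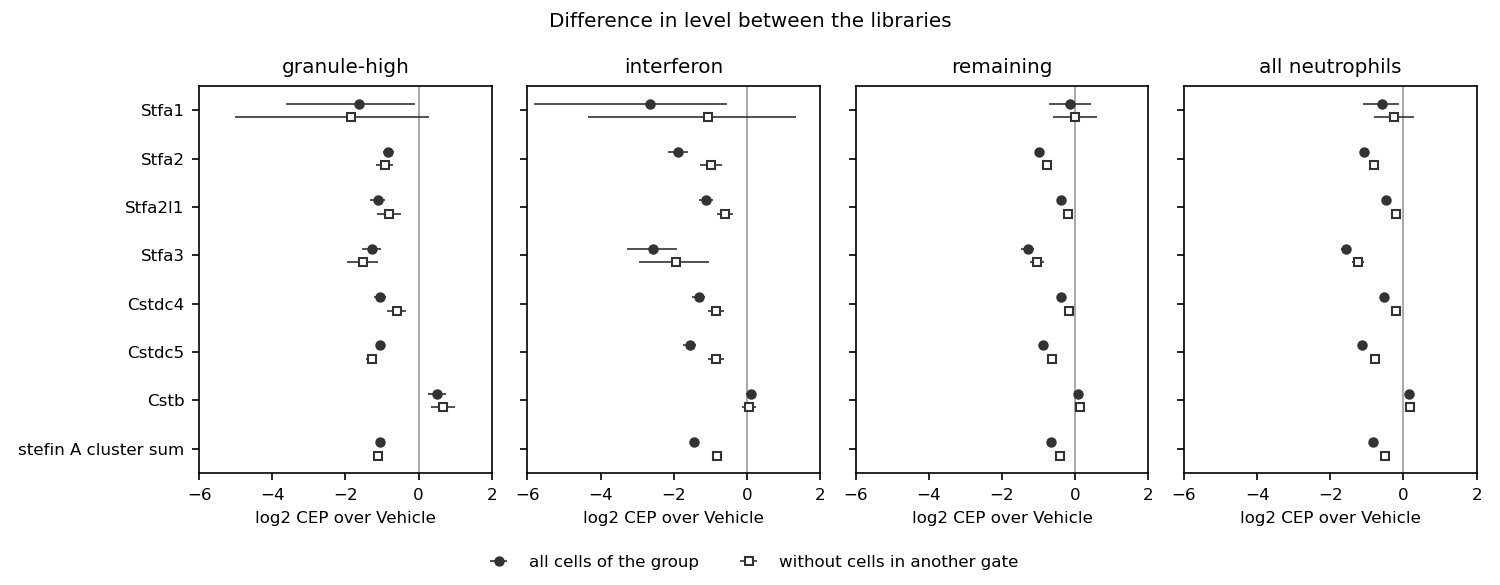
Log2 ratio of CEP over Vehicle for each member and the stefin A cluster sum in 3 neutrophil groups and all neutrophils, with 95% counting intervals. Filled circles use all cells of a group, open squares leave out cells that also met another gate. All points of the cluster sum, Stfa2, Stfa2l1, Stfa3, Cstdc4 and Cstdc5 lie left of 0 and all points of Cstb lie right of it, and Stfa1 has the widest intervals.

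**Figure D4:**
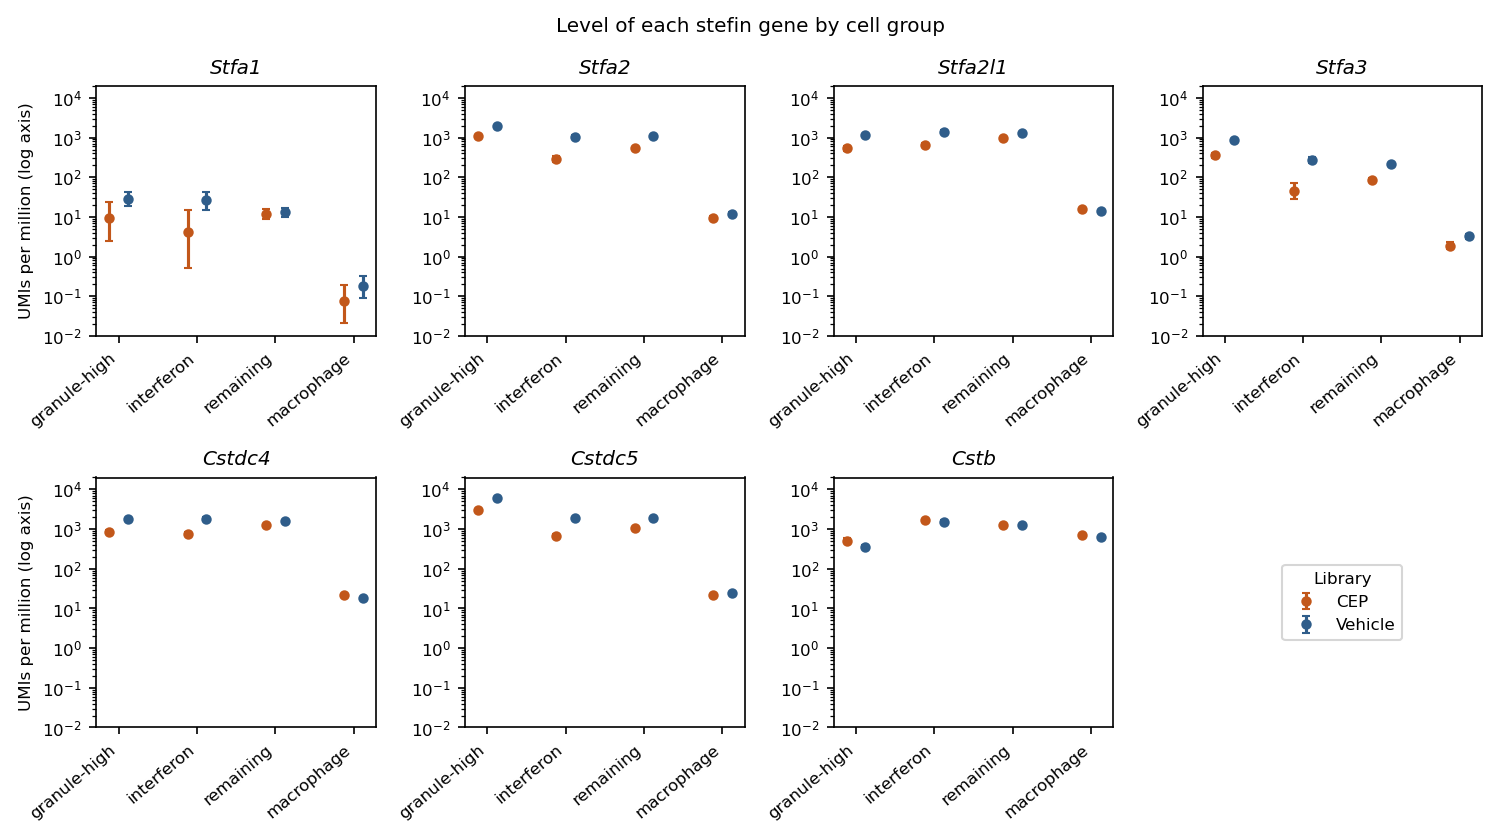
Level of each member in CPM, on a log axis with 95% Poisson intervals, in 3 neutrophil groups and macrophages of the CEP (orange) and Vehicle (blue) libraries. The macrophage points of the 6 neighbours lie at 0.691 to 1.92% of their level in all neutrophils of the same library, while Cstb lies between 363 and 1679 CPM in every group shown.

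Cell by cell, expressing cells held fewer cluster UMIs in CEP, and in the largest group the share of cells without any was nearly the same. For this, each cell was thinned to 1000 UMIs and shallower cells were left out (230 CEP and 210 Vehicle cells of the remaining neutrophils). Of the 1280 CEP and 1632 Vehicle cells left, 32.7 and 30.8% held no cluster UMI. Expressing cells held a mean of 7.59 and 9.39 UMIs of the stefin A cluster, and 17.8 and 23.5% of cells held at least 10. Without thinning, 71.7 and 73.8% of the remaining neutrophils held a cluster UMI, at median depths of 1711 and 1739 UMIs. In macrophages, at median depths of 10017 and 11228.5 UMIs, the share was 8.27 and 6.90%, and 3.53 and 2.84% after thinning.

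The interferon group differed in that share as well. After thinning, 45.3% of 117 CEP cells and 22.7% of 194 Vehicle cells held no cluster UMI, with means of 3.45 and 6.84 over all cells. Cells that also met another gate are included in the per-cell values. In the interferon group they were 33 of 123 CEP and 45 of 200 Vehicle cells before thinning, and their part was not tested. In granule-high cells 28.3 and 24.8% held none, and the means were 6.62 and 10.9. A UMI of Stfa3, a less abundant member, was found after thinning in 6.02% of remaining CEP cells and 10.5% of remaining Vehicle cells, and one of Stfa2l1 in 47.5 and 50.1%. The 10% of remaining cells with the highest cluster counts held 46.3 and 45.5% of the cluster UMIs, so the cluster was spread unevenly to a like degree in both libraries.

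**Figure D5:**
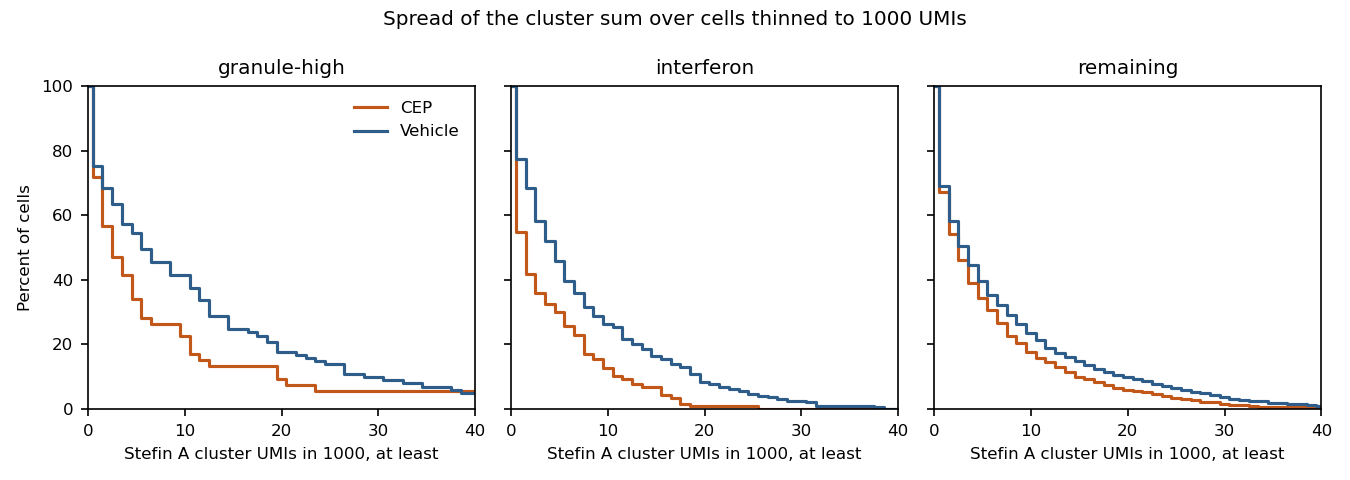
Percent of cells (vertical) that hold at least the given number of stefin A cluster UMIs (horizontal) after thinning to 1000 UMIs, for 3 neutrophil groups of the CEP (orange) and Vehicle (blue) libraries. Cells that also met another gate are included. In the remaining neutrophils the curves start together and part at higher counts, with 17.8 and 23.5% of cells at 10 or more, while in the interferon group they part from the first UMI.

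Members went together in the same cells. Over the thinned remaining neutrophils, the per-cell correlation (Pearson, of log2 of the UMIs in 1000 plus 1) of Stfa2 with Cstdc5 was 0.61 in CEP and 0.68 in Vehicle, that of Stfa2l1 with Cstdc4 0.51 and 0.55, and that of Stfa2 with Stfa3 0.46 and 0.53. Of the Stfa3-positive cells, 85.7% in CEP and 91.2% in Vehicle also held Cstdc5, which 35.6 and 42.8% of all these cells held. Cstb did not go with the cluster, its correlations with Cstdc5 being -0.01 and -0.05. These cells come from 1 library each and members can share reads, so the values are descriptions.

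Among 2059 other genes detected in at least 5% of these cells in each library, those most like the stefin A cluster sum were S100a8 (mean r over the libraries 0.41), S100a9 (0.36), Fam162a (0.31), Cstdc6 (0.30), Retnlg (0.27), Wfdc21 (0.24), Srgn (0.23) and Wfdc17 (0.23). S100a8 and S100a9 encode the subunits of calprotectin, Srgn the core protein of granule proteoglycans, and Cstdc6 is a further stefin A-like gene of the same row on chromosome 16. Each of the 8 was lower in CEP over all neutrophils, from Srgn at 9170 against 10558 CPM (log2 -0.20) to Cstdc6 at 69.2 against 130 CPM (-0.91). Outside the other gates, however, S100a8 was at 38678 and 38289 CPM (0.01), S100a9 at 73398 and 73105 CPM (0.01), Retnlg at 6843 and 7306 CPM (-0.09), Wfdc17 at 10064 and 10789 CPM (-0.10) and Wfdc21 at 1491 and 1419 CPM (0.07). Cstdc6 stayed lower there, at 91.8 and 136 CPM (-0.56, -0.77 to -0.36), close to the stefin A cluster sum at -0.51. Values of Fam162a and Srgn outside the other gates are not given here. In all granule-high cells, where the stefin A cluster sum was at -1.04, S100a8 was at 0.04, Wfdc21 at 0.03 and S100a9 at -0.03. Srgn was at -0.08 in these cells, Wfdc17 at -0.20, Retnlg at -0.32, Fam162a at -0.71 and Cstdc6 at -0.88. At the other end of the correlations stood ribosomal protein genes such as Rpl10a (mean r -0.25).

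In neutrophils that make the chemokines Ccl3 and Ccl4, Stfa3 and the stefin A cluster sum differed less between the libraries than in the others. This contrast was not tested. The remaining neutrophils with at least 5 UMIs of the pair numbered 308 in CEP and 297 in Vehicle, and the others 1202 and 1545. In the chemokine-high cells Stfa3 was at 122 CPM in CEP and 114 CPM in Vehicle (log2 0.10, -0.35 to 0.54), and in the chemokine-low cells at 78.0 and 231 CPM (-1.57, -1.77 to -1.36). Leaving out cells of other gates, an alternative chosen after seeing the data, gave 0.13 (-0.32 to 0.58) and -1.28 (-1.50 to -1.07). The stefin A cluster sum had log2 ratios of -0.36 in chemokine-high and -0.73 in chemokine-low cells, or -0.32 and -0.45 outside the other gates. Past 1.5-fold, 1 of 6 measured members (Stfa2) was lower in chemokine-high cells, where 4.73% of genes were, and 3 of 7 in chemokine-low cells, where 3.1% were. Cstb was higher in chemokine-high than in chemokine-low cells of both libraries, at 1785 against 1179 CPM in CEP and 1823 against 1117 CPM in Vehicle, a difference that 4.92 and 5.01% of genes reached upward.

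None of the measured cysteine proteases, among them cathepsins that stefins inhibit, was lower in CEP past 1.5-fold in all neutrophils. Of 11 cysteine cathepsins and legumain, 10 were measured there and 2 were higher past the fold (Ctsl and Ctsw), close to the 22% of all genes, with a median log2 ratio of 0.27 beside 0.12 for all genes. Ctsb, a lysosomal target of cystatin B, was at 1013 against 850 CPM (0.25), Ctsl at 733 against 391 CPM (0.91), Ctsz at 523 against 507 CPM (0.04) and Ctss at 324 against 327 CPM (-0.02). Among all neutrophils outside the other gates 8 were measured and none passed the fold in either direction. In the interferon group, however, 5 of 7 (Ctsb, Ctsh, Ctsl, Ctss and Lgmn) were higher in CEP where 25.2% of genes were, and outside the other gates 3 of 6 (Ctsc, Ctsl and Lgmn) where 7.78% were. The 4 fibroblast markers summed there to 1839 CPM in CEP, 99.5% of it from 1 cell, and 0 CPM in Vehicle, and the 7 macrophage markers to 1241 and 714 CPM, and their part in these counts was not tested. In granule-high cells 1 of 6 was higher (Ctss, 7.32% of genes), and outside the other gates 1 of 4 was higher (Ctsz) and 1 lower (Ctsc). Of 9 names of other cystatins, 7 were in the matrices, and BC117090 is the GENCODE name of Cstdc6. Of these, 2 were measured: Cstdc6, which was lower past the fold, and Cst3, the secreted cystatin C, at 1115 against 1061 CPM (0.07). Neither passed it in all neutrophils outside the other gates.

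Inhibitors of serine proteases, the other protease class of neutrophils, fell on both sides. Of 8, 6 were measured in all neutrophils, 2 were higher past the fold (Serpina3g and Serpinb6a) where 22% of genes were, and 1 was lower (Serpinb1a, the inhibitor of neutrophil elastase, at 57.0 against 98.2 CPM) where 2.03% were. Outside the other gates 5 were measured, Serpinb6a was higher (2.5% of genes) and Serpinb1a lower (3%). Wfdc17 was at 7149 against 9243 CPM (-0.37), Wfdc21 at 1162 against 1376 CPM (-0.24) and Slpi, the secreted leukocyte protease inhibitor, at 684 against 761 CPM (-0.15). The ratio of Wfdc21 turned to 0.07 outside the other gates. Of the 4 azurophil granule enzymes of the earliest neutrophil precursors, Elane, Prtn3 and Mpo were measured and higher in CEP past the fold in all neutrophils, but not in the remaining neutrophils or outside the other gates. In the remaining neutrophils Prtn3 was at 19.7 against 49.2 CPM (-1.32), and in all neutrophils outside the other gates it was at 18.5 and 18.8 CPM with Elane at 0 in both libraries. The CEP granule-high group held 790 UMIs of these enzymes and the Vehicle group 105, with 2 and 4 cells of at least 10 such UMIs. Without such cells the stefin A cluster sum of granule-high cells had a log2 ratio of -0.81.

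The level of the cluster differed across some thresholds of the groups and less across others. Neutrophils with 1 UMI of Csf3r and Cxcr2 had 2179 CPM of the stefin A cluster in CEP and 4037 CPM in Vehicle, those with 2 or more had 4763 and 8037 CPM, and cells with none that met no gate had 1145 and 1910 CPM. Just under the granule limit, at 5 to 9 UMIs, the level was 7641 and 10796 CPM, and just over it, at 10 to 19 UMIs, 6873 and 9992 CPM. For interferon genes it was 2517 and 4462 CPM at 2 to 3 UMIs and 3177 and 8952 CPM at 4 to 5 UMIs. With 2 C1q UMIs it was 2609 and 6151 CPM, and with 3, outside the gate, 2960 and 5118 CPM. In each of these ranges the CEP value was below the Vehicle value.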

How the data were processed

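The deposited matrices hold unnormalized UMI counts by gene and barcode, per the file headers. Those headers name Cell Ranger 7.1.0, whereas the submitters' processing notes name Cell Ranger 5.0.1 and the mm10 build. The sources used here do not say whether reads in introns were included. The CEP library held 9621 barcodes and 88721774 UMIs (median 6621), the Vehicle library 9989 barcodes and 81208647 UMIs (median 6236). No barcode had fewer than 500 UMIs. Barcodes were kept when they had 200 or more genes and no more than 15% of UMIs from mitochondrial genes (9544 and 9932). Cells with 3 to 9 C1q UMIs (786 and 773) entered no group, and 2 CEP and 7 Vehicle cells that met both the granule and the interferon limit were counted as granule-high. No doublet caller was used in the main values. Mixed cells were handled by the C1q limit and by the values outside the other gates, and leaving out the 8% of cells with the highest Scrublet score was an alternative.

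UMIs were summed per library and group. Intervals are 95%, exact Poisson for a sum, exact binomial (Clopper-Pearson) for a share and exact conditional binomial for a ratio, and cover counting error only. The all-neutrophil totals of 4928604 and 5855883 UMIs set the precision. Genes were counted as past the fold at a ratio of 1.5 or more with at least 50 UMIs in both sums together, adding 0.5 UMI to each. The ratio and its interval were tested on simulated counts. The members and gene lists were chosen with earlier results of these data known. Named genes were all members, the 4 most abundant genes of each list, the 8 genes whose values per cell were most like the cluster sum, and S100a8, S100a9 and Retnlg; list members that passed the fold and Rpl10a were named after their values were seen. Promoter windows are from a RefSeq table (GRCm38.p6), in which 6 of 7 members had an entry, and gene positions and transcripts from GENCODE M21, in which Cstdc5 is named BC100530. Software was Python 3.11.15 with scanpy 1.11.5 (Scrublet), biopython 1.88, scipy 1.17.1, matplotlib 3.10.9, numpy 2.4.6 and pandas 2.3.3.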

Additional observations from a re-analysis of the deposited data

Results flagged for a closer look

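Some differences between the libraries or between cell groups had intervals on opposite sides of 0. These intervals cover counting error only, and the differences themselves were not tested.

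For Stfa2l1 the log2 ratio of CEP over Vehicle was 0.17 in macrophages, against -1.12 in granule-high, -1.10 in interferon and -0.38 in remaining neutrophils. For Cstdc4 it was 0.27 in macrophages, against -1.06, -1.31 and -0.40. Beside these, S100a8 was at 0.16 in macrophages. The macrophage level was 1.79% of the neutrophil level in CEP and 1.03% in Vehicle for the stefin A cluster sum, and 1.41 and 1.04% for S100a8.

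Between neutrophil groups, Cstdc4 in granule-high over remaining cells was at -0.53 in CEP and 0.12 in Vehicle, but at -1.25 and -0.82 outside the other gates. There the stefin A cluster sum of this contrast was -0.27 in CEP and 0.41 in Vehicle, beside all-gene medians of -0.45 and -0.57. The share of Stfa2 in the cluster was 18.4% in granule-high and 14.1% in remaining cells of CEP, but 15.9 and 17.9% in Vehicle, and outside the other gates the intervals of the Vehicle shares (17.3 and 17.7%) overlapped. In interferon over remaining cells, Stfa2l1 was at -0.60 and 0.12, Stfa3 at -0.90 and 0.36, Cstdc4 at -0.74 and 0.17, and the stefin A cluster sum at -0.72 and 0.0798. Outside the other gates the Vehicle intervals of these 3 genes held 0, and the stefin A cluster sum was at -0.47 and -0.07.

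In Ccl3/Ccl4-high over low remaining cells, Stfa3 was at 0.64 in CEP and -1.02 in Vehicle, and Cstdc5 at 0.18 and -0.27. Outside the other gates Stfa3 was at 0.34 (-0.02 to 0.70) and -1.07 (-1.42 to -0.74), and Cstdc5 at -0.13 and -0.33. Cells of the epithelial gate held 8.69% of the UMIs of the chemokine-high and 19.1% of those of the chemokine-low CEP cells, and their part in these values was not tested.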

How the results depend on the processing

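The log2 ratio of the stefin A cluster sum was below 0 in all 53 alternatives, from -1.51 to -0.35. No paired analysis was possible because each group was 1 library. Of the leading values, 31 stayed within their counting interval and 32 moved. In all neutrophils, the value of -0.84 became -0.75 with a gate of 2 UMIs, -0.51 outside the other gates, -0.81 without high Scrublet scores, -0.44 as a mean of cells' CPM, -0.43 thinned and -0.96 centred on all genes. In granule-high cells (-1.04) it became -0.77 as a mean of CPM, -0.72 thinned, and -0.95 and -1.12 with limits of 5 and 20. In the interferon group (-1.45) it became -1.13 with a gate of 2, -1.10 with the S100 gate, -0.82 outside the other gates, -1.35 without high scores, -0.95 as a mean of CPM, -0.99 thinned, and -1.26 and -1.16 with limits of 2 and 8. In remaining neutrophils (-0.65) it became -0.59, -0.70 and -0.42 with the same gates, -0.37 as a mean of CPM, -0.35 thinned and -0.70 centred. Alternatives chosen after seeing the data were the following. Without epithelial-gate cells the values were -0.64, -1.08 and -0.44 in all, interferon and remaining neutrophils. Without cells rich in azurophil enzymes they were -0.81 in all neutrophils and -0.81 in granule-high cells. With CEP groups weighted as in Vehicle the sum was at -0.80 and Cstb at 0.10, and Cstb centred was at 0.038. Averaging over cells and thinning give each cell used the same weight, and cells of other gates stay in. In granule-high cells the ratio outside the other gates was -1.10. The causes of these shifts were not tested. Of values for single members in single groups, 86 moved and 184 did not; Stfa1 in remaining neutrophils ranged from -0.18 to 0.50.

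With at least 20 UMIs in place of 50, genes past 1.5-fold higher numbered 2895 in place of 1839 in all, 562 in place of 172 in granule-high, 1497 in place of 598 in interferon and 2420 in place of 1416 in remaining neutrophils. Lower genes numbered 328 in place of 170, 338 in place of 109, 657 in place of 395 and 377 in place of 210. Depth limits Stfa1 most, and the granule-high group rests on 54 and 101 cells.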
